A study of Mus musculus with 6 samples.

Results

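The SoxE genes Sox8, Sox9 and Sox10 were followed in a mouse Schwann cell line with and without an edited Sox10 gene. They were taken by name from the 54109 genes of the deposited count tables, and all 3 were found. Messenger RNA had been sequenced from 6 cultures of Msc80, a Schwann cell line grown in serum-containing medium. Control cultures (n = 3) are labelled wild type for Sox10. Sox10ko cultures (n = 3) had the gene inactivated by CRISPR/Cas9 editing, and the labels speak of a cell clone without saying whether 1 or several clones were used. Knockout and clone therefore cannot be told apart in this design, and p-values measure the spread between these cultures.

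The libraries held between 32328618 and 41834431 counted reads. Levels are given as CPM, reads relative to the library's total after TMM scaling (which corrects the library sizes for differences in composition), and 3 reads corresponded to between 0.0704 and 0.0899 CPM. Of 12 Schwann cell markers, 10 reached a mean of 1 CPM in control and 9 in Sox10ko, and their summed level ran from 4482 to 5024 CPM in control and from 380 to 543 CPM in Sox10ko. Most of the control sum came from Ngfr, a neurotrophin receptor, at 2965 ± 272 CPM in control and 16.4 ± 13.4 CPM in Sox10ko. Ncam1, L1cam and Fabp7 of the same list were not called (edgeR adjusted p = 0.905, 0.0769 and 0.467), with Ncam1 at 150 ± 7.24 and 155 ± 52.2 CPM. The 8 fibroblast markers summed to between 462 and 587 CPM in control and to between 1111 and 2316 CPM in Sox10ko, with Dcn and Lum under 1 CPM in both groups. Summed endothelial markers went from between 3.39 and 4.59 CPM to between 19.7 and 56.0 CPM, of which Vwf made up 31.7 ± 20.6 CPM, while Cdh5 of that list had 192 reads over the control libraries and 11 in Sox10ko, all in replicate 2, and Kdr had 0 and 9 reads. Leukocyte markers went from between 5.46 and 7.40 CPM to between 9.74 and 13.6 CPM. Of these, Cd68 averaged 2.37 and 8.22 CPM, while Csf1r averaged 4.16 and 3.07 CPM and was not called. Cd3e had 0 reads. Neuron markers went from between 89.2 and 100.3 CPM to between 54.5 and 72.4 CPM, mostly Tubb3 (means of 87.9 and 50.2 CPM). Snap25 (2.10 and 2.88 CPM), Syt1 (5.23 and 11.9 CPM) and Elavl4 (0.424 and 0.644 CPM) averaged higher in Sox10ko and were not called. Chondrocyte and melanocyte sums overlapped between groups. The part of these shifts in the results on the SoxE genes was not tested. Oligodendrocyte markers summed to at most 0.270 CPM in any library, with Olig2 and Nkx2-2 at 0 reads in all 6.

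SoxE proteins are transcription factors that bind DNA through an HMG domain, a fold shared by all SOX proteins, and activate transcription through a separate region. Sox10 maintains the identity of Schwann cells from the neural crest onwards and is needed again for myelination. Sox9 directs cartilage formation, testis development and early neural crest, and Sox8 overlaps with both relatives, often at lower levels. Because the 3 proteins recognise the same DNA motif, one can stand in for another in some tissues where they are present together.

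The similarity of the 3 genes was read from their coding sequences (GENCODE M21, GRCm38), because it bears on both their shared function and the risk that reads of one are counted for another. The stretch of 79 codons most alike in all 3 lies in the part that encodes the HMG domain. It is printed 5′ to 3′ on the coding strand, with capitals at bases that are not the same in all 3 genes. It lies at chr17:25568952-25570237 (minus strand) in Sox8, at chr11:112782888-112783917 (plus strand) in Sox9 and at chr15:79159295-79163416 (minus strand) in Sox10, each time over 2 exons with an intron between them.
Sox8: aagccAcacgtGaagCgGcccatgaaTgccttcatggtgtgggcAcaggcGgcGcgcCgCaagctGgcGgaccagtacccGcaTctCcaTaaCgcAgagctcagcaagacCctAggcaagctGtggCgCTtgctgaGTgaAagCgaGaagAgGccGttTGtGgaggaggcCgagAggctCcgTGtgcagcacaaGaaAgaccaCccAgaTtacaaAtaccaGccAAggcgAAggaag
Sox9: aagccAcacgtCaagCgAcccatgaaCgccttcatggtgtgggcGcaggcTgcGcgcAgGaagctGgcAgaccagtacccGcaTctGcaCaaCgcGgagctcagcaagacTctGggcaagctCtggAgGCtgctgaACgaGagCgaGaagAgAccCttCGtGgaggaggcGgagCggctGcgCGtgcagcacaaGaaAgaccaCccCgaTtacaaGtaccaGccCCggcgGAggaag
Sox10: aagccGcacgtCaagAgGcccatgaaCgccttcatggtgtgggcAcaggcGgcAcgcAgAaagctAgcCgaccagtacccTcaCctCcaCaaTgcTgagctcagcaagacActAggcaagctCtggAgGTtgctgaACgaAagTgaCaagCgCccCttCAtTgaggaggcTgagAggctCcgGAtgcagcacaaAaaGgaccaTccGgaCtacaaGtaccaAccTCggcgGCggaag

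Of the 237 bases, 186 were the same in all 3 genes and 51 were not, and 40 of those 51 were at the third base of a codon. Translation gave the same residue in all 3 proteins at 75 of 79 codons. The exon boundary fell after base 128 of the stretch in each gene. Over all aligned codons, with this stretch included, the genes differed more. The encoded residue was the same at 60.5% for Sox9 and Sox10, 55.6% for Sox8 and Sox9 and 54.5% for Sox8 and Sox10.

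The longest run of identical bases between annotated transcripts was 44 for Sox9 and Sox10, 26 for Sox8 and Sox10 and 23 for Sox8 and Sox9. No stretch of 50 bases was shared by any pair. The read length is not given in the sources used here, so how many reads could fall within such runs was not tested.

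**Figure D1:**
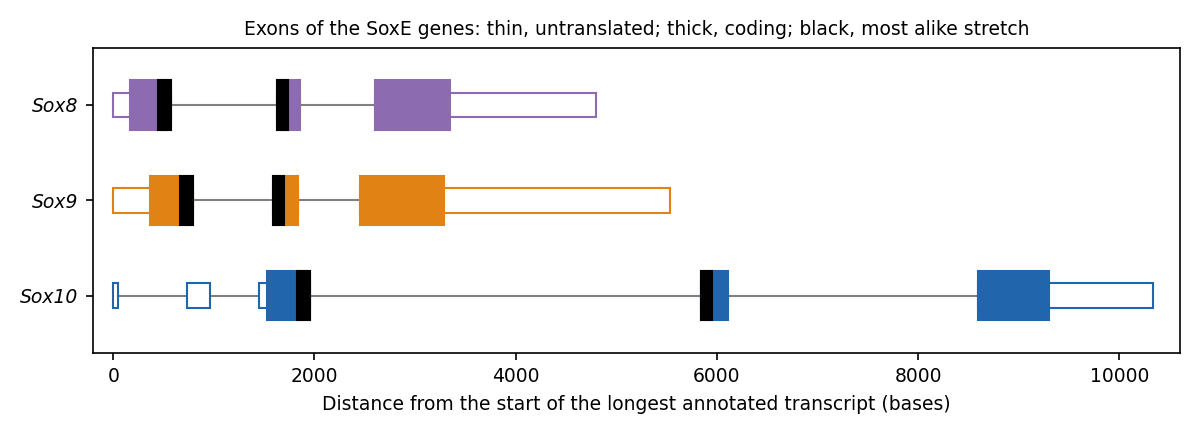
Exons of the longest annotated transcript of each SoxE gene, drawn to scale against the distance from its start in bases. Thin boxes are untranslated exon parts, thick boxes are coding, and black marks the 79 codons that are most alike, which are split by an intron after base 128 in all 3 genes.

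Sox10 RNA was strongly reduced in the edited cultures but did not disappear. The gene (ENSMUSG00000033006) spans 79154908 to 79165240 on the minus strand of chromosome 15 in GRCm38, with 4 annotated transcripts of 2 to 5 exons. Control replicates 1, 2 and 3 held 22360, 24490 and 25275 Sox10 reads, which is 606, 627 and 617 CPM. Sox10ko replicates 1, 2 and 3 held 2746, 2874 and 4671 reads, which is 82.3, 67.5 and 116 CPM. All Sox10ko values lay below all control values, and replicate 3 was the highest of the edited cultures. The fall passed the test (log2 fold change -2.80 ± 0.20 SE, edgeR adjusted p = 0.000186). Across all tested genes 14.7% were called lower and 17.3% higher, 32.0% in all, and groups did not overlap for 49.3% (25.5% higher, 23.8% lower). In bulk RNA, fewer cells with a transcript and less of it per cell cannot be told apart.

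The control cultures were nearly identical in Sox10 and the edited ones were not. On the log2 CPM scale its SD was 0.025 among control cultures and 0.398 among Sox10ko cultures. The medians over 10236 genes averaging at least 5 CPM were 0.119 and 0.178. Among those genes, 86.5% varied less between Sox10ko cultures than Sox10 did. On the scale of CPM per kb of exon, which allows genes of different length to be compared, Sox10 ranked 147th, 132nd and 147th of 15419 genes in control replicates 1, 2 and 3. It still ranked 1932nd, 2387th and 1352nd in the Sox10ko replicates, above at least 84.5% of the tested genes. The counts are summed over the gene, so which exons the remaining reads came from, and whether they encode protein, was not tested.

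Sox9 went from a trace to a low or moderate level, unevenly among the edited cultures. It lies on the plus strand of chromosome 11 from 112782224 to 112787760 (ENSMUSG00000000567), with 1 annotated transcript of 3 exons. Control replicates 1, 2 and 3 held 13, 14 and 5 reads, or 0.352, 0.359 and 0.122 CPM. Sox10ko replicates 1, 2 and 3 held 829, 160 and 611 reads, or 24.8, 3.76 and 15.2 CPM. The lowest Sox10ko value was above the highest control value, and replicate 1 exceeded replicate 2 by 6.61-fold.

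The Sox9 means were 0.278 ± 0.135 CPM in control and 14.6 ± 10.6 CPM in Sox10ko (SD, n = 3 each). The rise passed the test (log2 fold change 5.71 ± 0.80 SE, edgeR adjusted p = 0.00213) and was 52.6-fold, or 34.0-fold without Sox10ko replicate 1. In control, 2 of the 3 libraries reached the CPM level of the low-count filter, which asked for 3 libraries of any group. Control alone did not meet the filter, so that being tested depended on the level of Sox9 in Sox10ko. Among the edited cultures its SD of log2 CPM was 1.40, larger than that of 99.2% of the genes averaging at least 5 CPM. By CPM per kb it ranked 6832nd, 11352nd and 8362nd of 15419 genes in Sox10ko replicates 1, 2 and 3, while in control it was above at most 7.1% of them.

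Sox8 appeared at the edge of detection. The gene (ENSMUSG00000024176) spans 25565892 to 25570686 on chromosome 17, minus strand, with 3 annotated transcripts. Control replicate 1 held 1 read and the other two held 0, which allows up to 3 reads or 0.0768 and 0.0732 CPM in replicates 2 and 3. Sox10ko replicates 1, 2 and 3 held 13, 35 and 21 reads, or 0.389, 0.822 and 0.523 CPM. No control library reached the lowest Sox10ko value.

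The ratio of pooled Sox8 CPM was 69.5, with a 95% Clopper-Pearson interval of 12.1 to 2783 that covers counting error only. It was 46.3 without control replicate 2, 45.1 without control replicate 3 and at least 15.8-fold (against 3 counts over the group) without control replicate 1, which held the only control read. The fitted log2 fold change of 5.63 ± 0.78 SE passed the test (edgeR adjusted p = 0.00206), but Sox8 met the low-count filter only through Sox10ko, so that being tested already depended on its level there. The annotated antisense gene 2810468N07Rik covers 329 exonic bases of Sox8. It held 0 reads in control and 2, 3 and 3 reads in the Sox10ko replicates, and as the strand setting of the counting is not given, reads from the shared bases are uncertain.

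The 3 genes did not follow one order among the edited cultures. Sox10 was highest in replicate 3, Sox9 in replicate 1 and Sox8 in replicate 2. Replicate 2 had both the lowest Sox10 and the lowest Sox9. With 3 cultures no relation between the genes was tested.

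**Figure D2:**
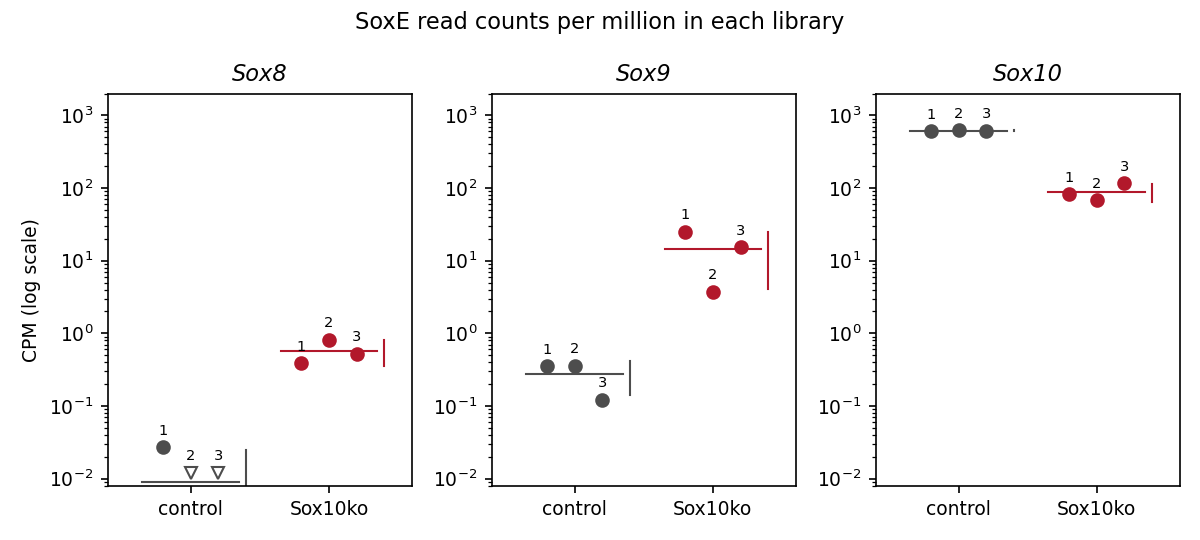
CPM of Sox8, Sox9 and Sox10 in each library on a log axis, with the replicate number above each point, the group mean as a horizontal line and 1 SD as a vertical line. Open triangles mark libraries with 0 reads and have no true height; Sox10 is between 67.5 and 116 CPM in Sox10ko, and Sox9 between 3.76 and 24.8 CPM.

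Added together per kb of exon, the gain of Sox8 and Sox9 RNA was small beside the loss of Sox10 RNA. The summed SoxE level was 199, 206 and 202 CPM per kb in control replicates 1, 2 and 3 and 33.1, 23.3 and 42.0 CPM per kb in Sox10ko replicates 1, 2 and 3. These Sox10ko sums were 16.4%, 11.5% and 20.8% of the control mean, where Sox10 alone stood at 13.3%, 10.9% and 18.9%. The gain of Sox8 and Sox9 was 3.46%, 0.612% and 2.30% of the loss of Sox10 in the same cultures, a mean of 2.12% ± 1.43 (SD, n = 3). The groups did not overlap in the summed level (202 ± 3.45 against 32.8 ± 9.36 CPM per kb, two-sided exact permutation p = 0.10, the smallest that 3 against 3 can give).

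Sox10 also remained the most abundant SoxE transcript in the edited cultures. Its level per kb was 4.49, 24.3 and 10.4 times that of Sox9 in Sox10ko replicates 1, 2 and 3. The ranges of the 3 genes did not overlap there: 22.1 to 38.1 CPM per kb for Sox10, 0.908 to 6.01 for Sox9 and at most 0.263 for Sox8. In control the order was the same, with Sox10 between 199 and 206 CPM per kb and Sox9 between 0.0295 and 0.0867. Sox8 reached 0.00870 CPM per kb in control replicate 1, where its single read was found.

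Sox9 made up 18.1%, 3.90% and 8.77% of the SoxE level per kb in Sox10ko replicates 1, 2 and 3, and at most 0.0429% in a control library. Its mean share was 0.0332% in control and 10.3% in Sox10ko (two-sided exact permutation p = 0.10, again the smallest possible). The difference of 10.2 percentage points was 6.30 without Sox10ko replicate 1. Sox8 made up between 0.377% and 1.13% in Sox10ko. Sox10 itself kept between 81.5% and 95.0% of the SoxE level there, against at least 99.95% in control.

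**Figure D3:**
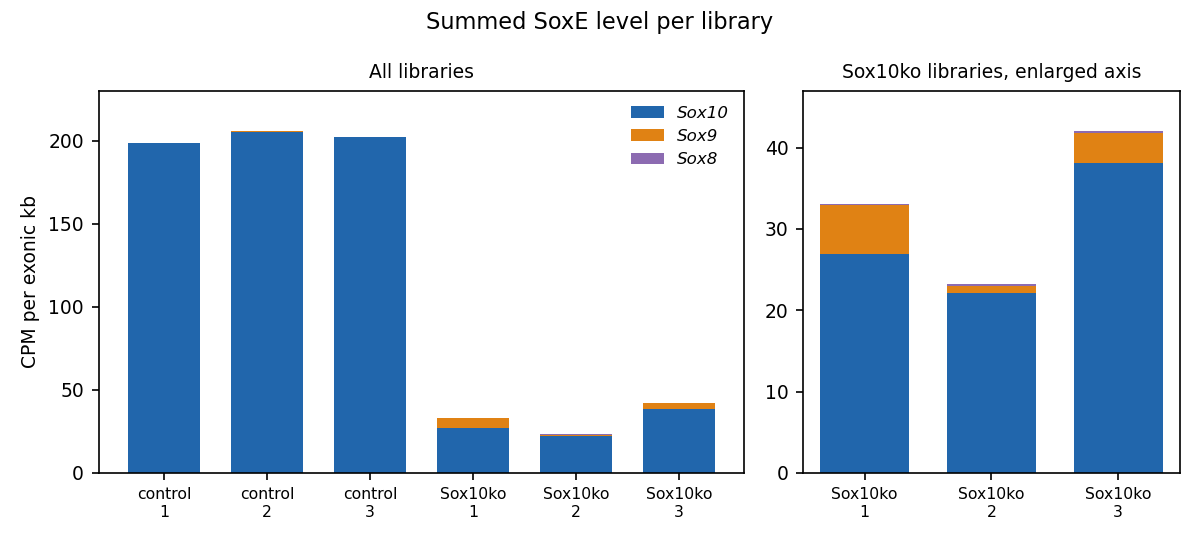
SoxE level of each library in CPM per kb of exon, stacked by gene, for all 6 libraries and again for the Sox10ko libraries on an enlarged axis. Sox10 is the largest part of every bar, and Sox9 is largest in Sox10ko replicate 1, at 6.01 of 33.1 CPM per kb.

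Within the whole SOX family of 20 genes, no tested gene outside the SoxE group rose. The family summed to between 341 and 354 CPM per kb in control and to between 60.9 and 73.6 in Sox10ko. Sox10 made up 56.2% to 60.3% of it in control and 36.3% to 51.8% in Sox10ko, and Sox2 passed it in Sox10ko replicate 2 (27.6 against 22.1 CPM per kb). Of all tested genes 14.7% were called lower, and their median log2 fold change was 0.02. All 5 tested SOX genes outside the SoxE group were lower, with a median log2 fold change of -2.20. Without control replicate 1 or 3 or Sox10ko replicate 3, 4 of the 5 were called, as Sox4, a SoxC gene, lost its call (edgeR adjusted p up to 0.0637). The other 12 listed held at most 21 reads each over the 6 libraries. Sox9 moved from between the seventh and the ninth place of the family in control to the fourth or the fifth in Sox10ko. The SoxD genes Sox5, Sox6 and Sox13, all above Sox9 in control, fell in Sox10ko, so its place does not measure its own rise alone.

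Factors known to act on the Sox10 enhancers, or together with Sox10 on its targets, were mostly lower where they changed. Of 20 listed, 10 had enough reads to be tested, 5 were lower and 1 higher, with a median log2 fold change of -0.58. That is 60.0% called, beside 32.0% over all tested genes. Foxd3, a repressor of the early neural crest, read 155, 134 and 152 CPM in control and 13.7, 8.22 and 8.60 CPM in Sox10ko replicates 1, 2 and 3 (edgeR adjusted p = 7.83e-05). Ets1, an activator of neural crest enhancers, read 281, 312 and 289 CPM against 89.3, 75.4 and 82.9 CPM (edgeR adjusted p = 7.83e-05). Neither gene overlapped between groups, and both kept a lower level in every edited culture. Pax3, a partner of Sox10 at neural crest promoters, fell from 1.58 ± 0.338 to 0.480 ± 0.0784 CPM, and Tead1, the DNA-binding partner of Yap, fell from 320 ± 24.4 to 214 ± 18.2 CPM (edgeR adjusted p = 0.00471 and 0.00633). Tfap2a, named because it was the remaining fall, went from 35.6 ± 0.700 to 20.9 ± 6.69 CPM (edgeR adjusted p = 0.0330), a call lost without any 1 of the control replicates or without Sox10ko replicate 3 (edgeR adjusted p up to 0.0887).

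The gene that went the other way was Tcf7l2, a nuclear effector of Wnt signalling, which rose from 37.7 ± 2.04 to 55.3 ± 5.20 CPM (log2 fold change 0.55 ± 0.11 SE, edgeR adjusted p = 0.00746). Mitf, the melanocyte factor that Sox10 activates, averaged 19.2 ± 3.96 CPM in control, 19.8 ± 7.58 CPM in Sox10ko and was not called (edgeR adjusted p = 0.915). Several classical partners had next to no reads in either group. Pou3f2, Olig2 and Tfap2c were at 0 reads in all 6 libraries, Pou3f1 and Olig1 had 1 read in all and Myb had 3.

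Cofactors and modifiers of SoxE proteins were called about as often as the tested genes in general. All 12 were tested, 3 were lower and 1 higher, a share of 33.3% beside 32.0% over all tested genes, with a median log2 fold change of -0.10. The histone deacetylase genes Hdac1 and Hdac2, whose products Sox10 recruits in Schwann cells, fell 1.39-fold and 1.42-fold (edgeR adjusted p = 0.00718 and 0.00395). Smarcd1, which encodes a subunit of the BAF chromatin remodeller, fell from 117 ± 18.3 to 61.3 ± 11.7 CPM (edgeR adjusted p = 0.00685). Pias1, a SUMO ligase gene, was 1.26-fold higher (edgeR adjusted p = 0.0186), a call that was lost without any 1 of the control replicates or without Sox10ko replicate 2 (edgeR adjusted p between 0.0536 and 0.105). The acetyltransferase genes Ep300 and Crebbp, the remodeller gene Smarca4 and Fbxw7, a ubiquitin ligase component that targets SoxE proteins, did not pass, at edgeR adjusted p between 0.504 and 0.662.

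Glial and neural crest genes known as Sox10 targets fell further than Sox10 RNA itself in several cases. Of 22 listed, 11 were tested, and 72.7% of these were called, beside 32.0% over all tested genes. Of those called, 7 were lower and 1 higher, and the median log2 fold change of the tested genes was -2.74. Among the 7, Cnp met the low-count filter only through control. Cdh19, a cadherin of Schwann cell precursors, read 338, 348 and 367 CPM in control and 18.5, 10.7 and 11.7 CPM in Sox10ko replicates 1, 2 and 3. Erbb3, the neuregulin receptor, read 389, 474 and 407 CPM against 3.86, 1.38 and 2.57 CPM. Neither gene overlapped between groups. Their falls of 25.8-fold and 163-fold stand beside the 6.95-fold fall of Sox10 and passed the test (edgeR adjusted p = 5.32e-05 for each). The differences between these folds were not tested. Lgi4, a secreted maturation factor, fell 134-fold (edgeR adjusted p = 0.000194), or 211-fold without Sox10ko replicate 3. Pmp22, a compact myelin protein, was the gene that rose (2.63-fold).

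Cartilage genes known as Sox9 targets did not rise as a group beside the rise of Sox9. Of 19 listed, 10 were tested, 4 were lower and 2 higher, with a median log2 fold change of -0.84. The share called was 60.0%, beside 32.0% over all tested genes. Col2a1, the cartilage collagen and the classical Sox9 target, read 0.298, 0.461 and 0.171 CPM in control and 0.599, 0.305 and 0.424 CPM in Sox10ko replicates 1, 2 and 3, so that the groups overlapped (edgeR adjusted p = 0.445). Acan, the cartilage proteoglycan, had 2 reads in control and 9 in Sox10ko, Hapln1 1 and 4, and Ucma none. The listed cartilage genes that fell were Col27a1, a fibrillar collagen that went from 184 ± 10.1 to 18.0 ± 1.54 CPM, the SoxD genes Sox6 and Sox5, and Snorc. Snorc, a membrane proteoglycan of cartilage, held 220 reads over the control libraries against 2 over the edited ones. Its pooled Sox10ko level was 0.00915 of control (95% Clopper-Pearson counting interval 0.00110 to 0.0335), 109-fold lower. Snorc met the low-count filter only through control. The fold was 69.2 without Sox10ko replicate 2 and at least 47.7-fold lower without Sox10ko replicate 3, which held both reads.

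The listed cartilage genes that rose were Fgfr3 and Col11a2. Fgfr3, a fibroblast growth factor receptor, read 1.44, 1.02 and 1.46 CPM in control and 15.2, 22.4 and 10.3 CPM in Sox10ko replicates 1, 2 and 3 (log2 fold change 3.61 ± 0.33 SE, edgeR adjusted p = 0.000409). It was highest in replicate 2, where Sox9 was lowest, but with 3 cultures a relation of Fgfr3 to Sox9 was not tested. Col11a2, a minor fibrillar collagen, rose 1.78-fold (edgeR adjusted p = 0.0176) and was no longer called without control replicate 2 or 3 (edgeR adjusted p = 0.0614 and 0.0842).

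Testis genes, which here include SoxE targets and genes of Sertoli cells that act beside or upstream of Sox9, mostly had too few reads to be tested. Of 12 listed, 5 were tested, 2 were higher and 1 lower, with a median log2 fold change of 0.77. These calls made up 60.0% of the tested genes of the list, beside 32.0% over all tested genes. Amh, the anti-Müllerian hormone that Sox9 switches on in Sertoli cells, read 0.922, 0.871 and 0.537 CPM in control and 1.44, 0.822 and 0.723 CPM in Sox10ko (edgeR adjusted p = 0.516). Ptgds, a prostaglandin synthase linked to Sox9 in the testis, overlapped between groups too (edgeR adjusted p = 0.278). Cyp26b1, a retinoic acid-degrading enzyme, rose from 80.9 ± 21.2 to 195 ± 18.7 CPM (edgeR adjusted p = 0.00261), and Dhh, a hedgehog ligand made by Schwann and Sertoli cells, fell 2.19-fold. Gata4, a gonadal and cardiac factor, had 0 reads in control and 101 in Sox10ko. It was at least 33.9-fold higher against 3 counts over the group, 22.6-fold without control replicate 2 and 22.0-fold without control replicate 3, and it met the low-count filter only through Sox10ko.

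**Figure D4:**
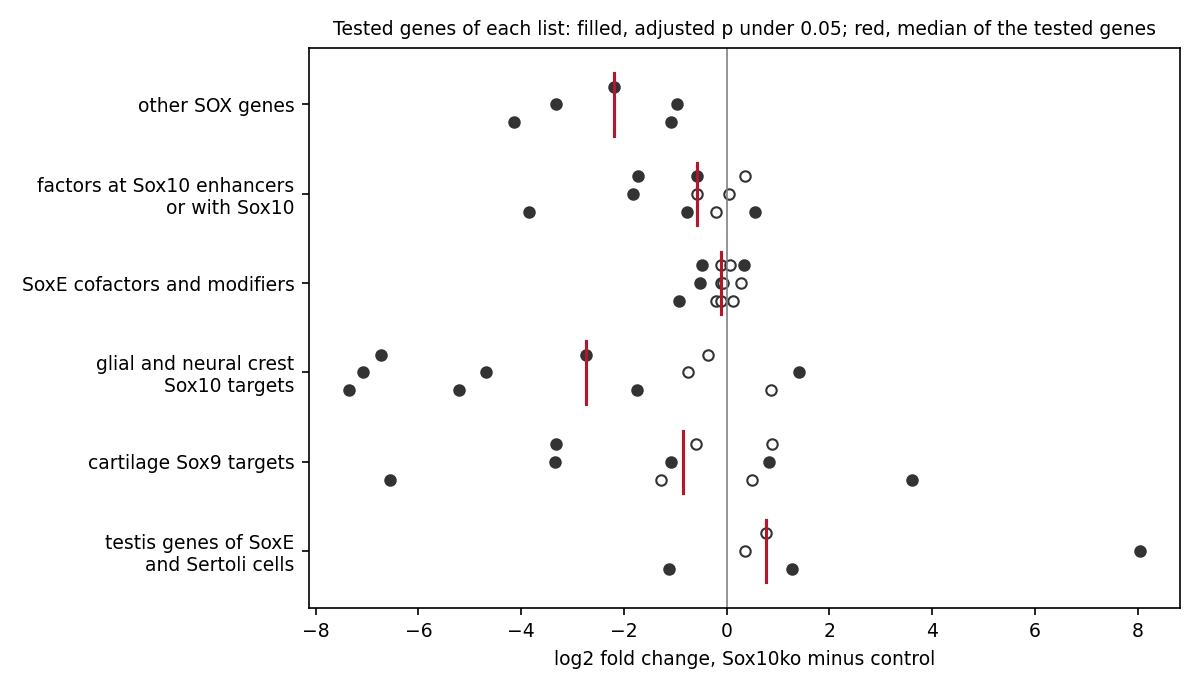
Log2 fold change, Sox10ko minus control, of each tested gene in 6 lists, 1 point per gene, filled where the edgeR adjusted p was under 0.05. Red lines are medians of the tested genes, from -2.74 for the glial and neural crest Sox10 targets to 0.77 for the testis genes.

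Of the 12 protein-coding genes nearest to the SoxE loci, 7 were tested, 3 were higher and 2 lower. Over all tested genes 32.0% were called, 17.3% higher and 14.7% lower. Polr2f, a subunit of RNA polymerase that lies 3.1 kb from Sox10, read 77.5, 66.3 and 80.1 CPM in control and 51.0, 35.4 and 54.4 CPM in Sox10ko. It fell 1.59-fold (edgeR adjusted p = 0.0237), a call lost without control replicate 1 or 3 (edgeR adjusted p = 0.0676 and 0.0827). On the other side of Sox10, Pick1 at 63.9 kb did not pass (edgeR adjusted p = 0.394). Gm49486 overlaps Pick1 on the same strand, so that its reads are uncertain, and fell 2.65-fold (edgeR adjusted p = 0.00871). The remaining neighbour, 1700088E04Rik at 13.7 kb, did not pass either (edgeR adjusted p = 0.178).

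Sox9 lies in a stretch poor in genes, and its nearest protein-coding neighbour is 457.1 kb away. That gene, Slc39a11, a zinc transporter, was 1.77-fold higher, at 32.3 ± 1.72 CPM beside 18.2 ± 0.812 CPM in control (edgeR adjusted p = 0.00131). Its Sox10ko values differed little between replicates (34.0, 32.3 and 30.6 CPM). Kcnj2 and Kcnj16, on the other side at 1705.4 and 1754.3 kb, had 0 reads in all 6 libraries, and Sstr2 had 2 reads in all. Next to Sox8, Lmf1 at 8.4 kb was 1.48-fold higher (edgeR adjusted p = 0.0434), and this call was lost without control replicate 1 or 3 or Sox10ko replicate 2 or 3 (edgeR adjusted p between 0.0654 and 0.161). Tekt4 at 89.3 kb had 7 reads in control and 146 in Sox10ko, of which replicate 3 held 101, and met the low-count filter only through Sox10ko. Its rise (edgeR adjusted p = 0.0255, 20.7-fold) was 9.92-fold without Sox10ko replicate 3 (edgeR adjusted p = 0.0614), and it was also lost without control replicate 1 (13.6-fold, edgeR adjusted p = 0.0824) or 3 (13.5-fold, edgeR adjusted p = 0.0920). Without control replicate 2, which held the 7 reads, Tekt4 was at least 32.6-fold higher.

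Genes with the pattern most like each SoxE gene were sought among tested genes averaging at least 5 CPM, by the root mean square difference of log2 CPM over the 6 libraries after centring on the control mean. For Sox10 the 5 closest were Nrcam, a cell adhesion protein found at nodes of Ranvier, Tmem158, the integrin gene Itga1, the synaptic adhesion gene Lrrc4b and the kinase gene Dclk1, at differences of 0.11 to 0.20. Nrcam read 203, 257 and 242 CPM in control and 29.6, 26.6 and 40.0 CPM in Sox10ko replicates 1, 2 and 3. As with Sox10, replicate 3 was the highest and replicate 2 the lowest of its edited cultures. Genes were chosen by these same values, so a like order follows largely from the choice and is not a separate result.

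For Sox9 the closest were Lcp1, an actin-bundling protein, the myosin gene Myo1d, the carboxylesterase gene Ces1f, Rasgrp2, an activator of Rap proteins, and the extracellular superoxide dismutase gene Sod3, at 0.29 to 0.73. Lcp1 read 0.515, 0.410 and 0.122 CPM in control and 31.2, 6.24 and 13.8 CPM in Sox10ko replicates 1, 2 and 3. Its edited cultures had the same order as for Sox9, which again follows largely from the choice. For Sox8 the closest were Vtcn1, Csf1, Sorbs2, Tcte2 and Pdk2, at 0.18 to 0.30. Its few reads are drawn towards the prior count of 2 on this scale, which makes its pattern flatter than the fitted change.

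**Figure D5:**
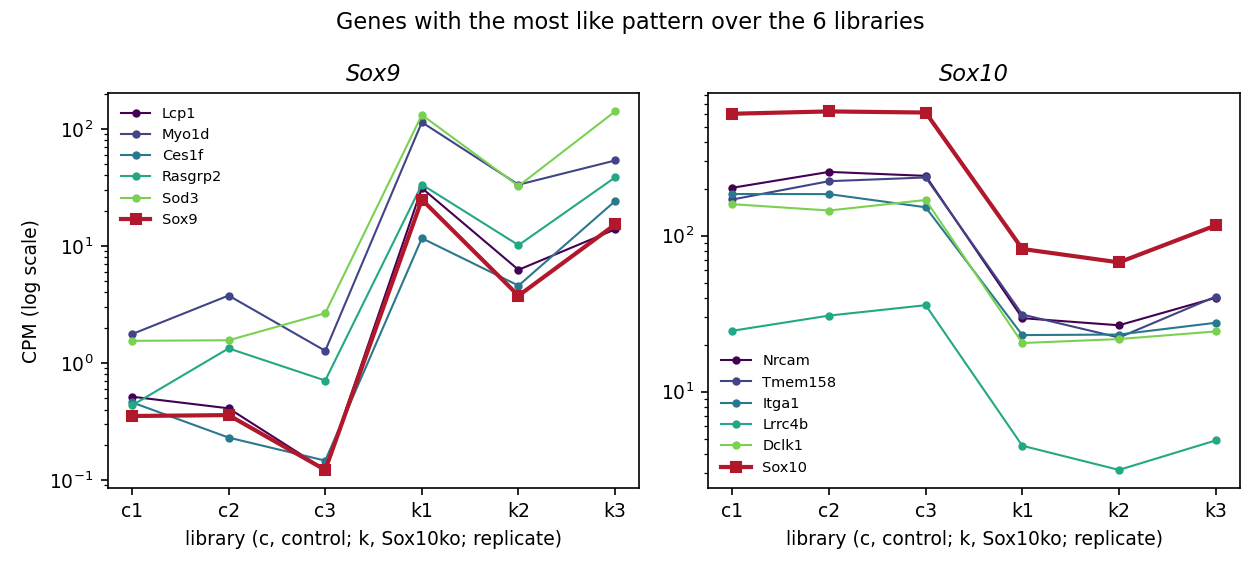
CPM on a log axis in the 6 libraries for Sox9, Sox10 and the 5 genes with the most like pattern for each; lines only join the values of a gene, as replicates have no order. The genes like Sox9 are low in control and lowest among the Sox10ko libraries in replicate 2, and those like Sox10 are lower in all 3 Sox10ko libraries. These likenesses follow largely from how the genes were chosen.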

How the data were processed

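Read counts per Ensembl gene ID were deposited by the authors as whole numbers, 1 table per library, and were used as raw counts. The tools named in the submitters' processing notes are STAR 2.6.0c, HTSeq and DESeq2, with build mm10 (GRCm38). Their roles, the annotation release and the strand setting of the counting were not given in the sources used here. Strand is kept by the library kit, per the labels' protocols. Samples were grouped by title. Symbols matched 54042 of 54109 IDs.

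All 6 libraries were filtered (filterByExpr, 10 reads, or 0.249 CPM, in 3 libraries), scaled by TMM and tested for genotype with the two-sided quasi-likelihood F test of edgeR 4.0.16 (R 4.3.3), Benjamini-Hochberg adjusted over 15427 genes, threshold 0.05. Steps were tested on simulated data. In the simulation only genes expressed in control were changed, with a fixed spread. A rise from a trace, as for Sox9 and Sox8, was not covered. Lengths, loci and coding sequences came from GENCODE M21 (GRCm38). Members and lists were chosen with earlier results of these data known. Named genes were the members, their overlapping and 2 nearest protein-coding genes per side, up to 4 called genes per list with the lowest adjusted p, up to 2 called against its direction, listed genes at 0 to 3 reads in all libraries, and the 5 most like each member. A named gene is not reported here. Genes named as values that did not pass were chosen for their role. Alternatives were DESeq2 1.42.0 (size factors or Wald test), library size alone, other filters, limma-voom (limma 3.58.1), a replicate block, transcript length, and leaving out each library. Intervals and floors cover counting error only, as no molecular identifiers are named that would mark PCR copies.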

Additional observations from a re-analysis of the deposited data

How the results depend on the processing

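Sox10, Sox9 and Sox8 kept their direction and their side of the threshold under all alternatives that tested them; Sox8 was not tested at a mean of at least 5 CPM. Leaving out a library gave log2 fold changes of -3.05 to -2.64 for Sox10, 5.08 to 6.16 for Sox9 and 5.13 to 7.51 for Sox8. Sox10 remaining stayed between 12.1% and 16.0%. The number of genes called, 4939, ran from 2869 without control replicate 3 to 4681 when 1 library was left out (genes higher 1523 to 2531, lower 1346 to 2188); the cause was not tested. With library size alone in place of TMM, 2969 genes were higher and 1903 lower, against 2664 and 2275. Without the low-count filter, where more genes were tested, 13 glial and neural crest Sox10 targets were called against 8. At a mean of at least 5 CPM, where fewer were tested, 1 testis gene was called against 3. These counts were not set beside the share of all genes called under the same filter, so they show only that list counts depend on the filter. No pairing of the cultures by replicate number was seen (correlations of same-numbered deviations -0.119, -0.042 and 0.035). Those of differently numbered cultures ran from -0.075 to 0.105, and a weak pairing could go unseen. With the replicate number as a block 3537 genes were called, and Sox10, Sox9 and Sox8 stood at -2.83, 5.43 and 5.60. The block cost Pias1, Col11a2, Tekt4 and Lmf1 their calls (edgeR adjusted p = 0.0802, 0.0656, 0.0624 and 0.0796 with the replicate block). Over 47 other genes picked by the naming rule, 603 refitted values held 583 on their side of the threshold, 20 that lost their call and 0 that reversed. Sox4 and Tfap2a, named outside that rule, are not among them, and their lost calls are given above.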

Other observations

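Several genes of the lists had too few reads to be tested by edgeR but did not overlap between groups, and they were chosen after their values were seen. Groups did not overlap for 49.3% of the tested genes, and the share among genes with too few reads was not computed. Gjb1, a connexin of myelinating Schwann cells, had 8, 13 and 7 reads in control and none in Sox10ko. Tfap2b, a neural crest factor, summed to 65 reads over the control libraries and 2 over the Sox10ko libraries, and Sox1, a SoxB gene, to 21 and 0. In the other direction, Ret, a receptor gene activated by Sox10 in the enteric lineage, had 1 read in control and 4, 7 and 21 in Sox10ko. Matn1, a cartilage matrilin, had 2 and 35 reads, and Wt1, a gonadal factor, 0 and 19.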
